A study of Mus musculus with 15 samples.

Results

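The genes described here encode the proteins that fetal hepatocytes make and mostly release into plasma. A list of 45 of them was matched to the transcript clusters of the array, taking for each gene the cluster with the highest mean signal. Of these, 44 had a cluster of their own, among 19938 genes in the whole data set, and C3 was not analysed here. They were divided by role into 11 fetal and transport proteins, 12 coagulation and fibrinolysis proteins, 3 complement proteins, 10 protease inhibitors, scavengers and acute-phase proteins, and 8 genes that comprise the regulator Hnf4a and 7 metabolic genes. The signals came from 15 Affymetrix arrays, 1 for each RNA sample, taken from FVB/NJ fetal livers at E13.5 after selection for TER119. TER119 is a surface antigen of maturing red cells, and the cells were held back on magnetic columns with beads against it. The arrays fall into 4 genotypes. DKO embryos were Klf3-/- Klf8gt/gt (4 arrays), Klf3KO embryos were Klf3-/- (3 arrays), Klf8gt embryos were Klf8gt/gt (4 arrays), and WT embryos carried neither allele (4 arrays). All groups share the strain, the stage and the purification, and no purity of the cells was available for use. The labels state litter matching only as far as it could be done, without saying which arrays share a litter or whether an array stands for a single embryo, so the p-values rest on the spread of the arrays within a group, part of which may be technical. KLF3 and KLF8 are zinc finger repressors that bind CACCC-type elements, and the comparisons ask what the loss of each changes with and without the other.

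In the embryo the liver is the site of red cell formation, and erythroblasts mature in close contact with macrophages and with hepatoblasts, the precursors of hepatocytes. Hepatoblasts begin with alpha-fetoprotein and albumin, then add clotting factors, complement and protease inhibitors, and acquire urea cycle, lipid and drug-metabolising enzymes progressively towards birth. HNF4A is the nuclear receptor that, with FOXA and other factors, drives most of these genes. Erythroid cells are not a known source of these plasma proteins. In a bulk sample such as this, fewer cells of a type and less RNA per cell cannot be told apart.

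All values are log2 signals as deposited, and differences between groups are differences of group means on that scale. The array medians lay between 6.28 and 6.41, the lower quartiles between 4.92 and 5.01, and correlations between arrays between 0.974 and 0.992. The mean of 15 erythroid genes, TER119's own lineage, lay between 11.37 and 12.14 on every array. The Klf3 cluster does not show a loss of transcript in the arrays labelled Klf3-/-. Its signal was 11.37 ± 0.28 in DKO and 11.32 ± 0.14 in Klf3KO arrays, against 10.27 ± 0.04 in Klf8gt and 10.27 ± 0.17 in WT arrays (SD, n = 4, 3, 4 and 4), and its probes may lie outside the deleted part. Klf8 stood at 7.29 ± 0.55 in DKO arrays and 8.71 ± 0.26 in Klf3KO arrays, against 5.39 ± 0.09 in Klf8gt and 5.36 ± 0.18 in WT arrays, the last pair below the array medians. For both clusters every DKO and Klf3KO array lay above every Klf8gt and WT array, so they separate the arrays by Klf3 label. For Klf8 every DKO array lay below every Klf3KO array, while Klf8gt and WT arrays overlapped. What each allele does to its gene rests on the labels. Y-linked and Xist signals marked 9 arrays as male, among them all 4 WT arrays.

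The proximal promoters of the members were searched for binding motifs of hepatocyte regulators. RefSeq's windows, on assembly GRCm38.p6, hold 250 bases before and 50 bases after a start of transcription, and 34 of the 44 genes had 37 of them. Shown are Alb, a classic marker of the hepatocyte lineage, and 4 genes that fell in DKO relative to Klf8gt arrays and hold a match, the secreted proteins Ahsg and Apoh and the metabolic genes Iyd and Cyp2c70. Capitals mark matches on either strand to the HNF4 half-site CAAAGTC, whose reverse complement is GACTTTG, or to the FOXA core TGTTTAC.
Alb, chr5:90460620-90460919, plus strand: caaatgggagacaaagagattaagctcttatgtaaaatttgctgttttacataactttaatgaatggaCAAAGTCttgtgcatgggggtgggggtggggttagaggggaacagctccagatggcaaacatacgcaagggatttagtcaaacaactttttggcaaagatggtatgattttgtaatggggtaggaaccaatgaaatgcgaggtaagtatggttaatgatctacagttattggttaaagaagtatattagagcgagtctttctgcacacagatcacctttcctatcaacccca
Ahsg, chr16:22891765-22892064, plus strand: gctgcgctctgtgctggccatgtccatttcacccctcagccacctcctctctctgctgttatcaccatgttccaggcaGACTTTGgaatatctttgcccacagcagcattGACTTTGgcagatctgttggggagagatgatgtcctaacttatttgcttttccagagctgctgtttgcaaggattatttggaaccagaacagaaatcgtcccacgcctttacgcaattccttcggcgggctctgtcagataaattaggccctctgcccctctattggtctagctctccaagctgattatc
Iyd, chr10:3540024-3540323, plus strand: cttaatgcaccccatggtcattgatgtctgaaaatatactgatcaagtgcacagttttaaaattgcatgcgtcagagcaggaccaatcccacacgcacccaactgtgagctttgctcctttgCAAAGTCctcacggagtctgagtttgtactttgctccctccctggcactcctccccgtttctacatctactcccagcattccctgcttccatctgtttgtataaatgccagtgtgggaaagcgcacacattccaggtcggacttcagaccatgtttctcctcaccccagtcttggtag
Cyp2c70, chr19:40187237-40187536, minus strand: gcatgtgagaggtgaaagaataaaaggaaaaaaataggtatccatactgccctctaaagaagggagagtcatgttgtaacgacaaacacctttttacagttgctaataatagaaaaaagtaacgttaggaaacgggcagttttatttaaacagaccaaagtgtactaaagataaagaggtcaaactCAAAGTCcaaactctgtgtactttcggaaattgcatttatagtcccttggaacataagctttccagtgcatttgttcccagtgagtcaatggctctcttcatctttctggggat
Apoh, chr11:108395047-108395346, plus strand: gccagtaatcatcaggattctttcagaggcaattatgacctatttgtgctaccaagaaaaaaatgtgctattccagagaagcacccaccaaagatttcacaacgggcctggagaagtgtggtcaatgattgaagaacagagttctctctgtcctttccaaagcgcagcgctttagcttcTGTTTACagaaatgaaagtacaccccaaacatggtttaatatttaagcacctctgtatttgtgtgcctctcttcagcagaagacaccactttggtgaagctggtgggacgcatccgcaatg
The windows of Alb, Iyd and Cyp2c70 hold the HNF4 half-site on the strand shown, that of Ahsg holds it on the opposite strand in 2 places, and that of Apoh holds the FOXA core. The other genes that fell and had a window, F13b, C8b, Pzp, Fabp1, Ugt2b36, Saa3 and F9, held neither. Over the list, the HNF4 half-site was found in 6 of 37 windows (16.2%), with those of Hpx and Vtn beside the ones shown, against 4.44% of 32851 windows of all genes. The FOXA core was found in 3 windows (8.11%, against 3.65% of all), those of Apoa2, Apoh and Rbp4, and the TATA box TATAAA in 10 (27.0%, against 13.6%). The CACCC-type letters CACACCC were found in 1 window, that of F10 (2.70%, against 7.95% of all). The stretches in capitals do not overlap each other. These are matches of letters, chosen with the signals known, and no binding was measured.

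The mean of the 44 genes was highest in 3 of the 4 Klf8gt arrays, and replicate 1 of Klf8gt and replicate 1 of DKO stood apart from their groups. It was 8.85, 9.85, 9.83 and 9.81 in DKO arrays, 9.84, 9.79 and 10.06 in Klf3KO arrays, 9.91, 10.77, 10.53 and 10.67 in Klf8gt arrays, and 9.68, 9.44, 9.77 and 9.88 in WT arrays. Group means were 9.58 ± 0.49 in DKO, 9.90 ± 0.14 in Klf3KO, 10.47 ± 0.38 in Klf8gt and 9.69 ± 0.19 in WT arrays (SD, n = 4, 3, 4 and 4). Replicates 2, 3 and 4 of Klf8gt lay above every other array. Replicate 1, at 9.91, lay within the range of the Klf3KO arrays and just above the highest WT array, at 9.88. DKO replicate 1 lay below all other arrays. It held the lowest signal of all 15 arrays for 38 of the 44 genes, with a median difference of -1.14 from the mean of the other DKO arrays, and Hpx was furthest down (-1.64). Klf8gt replicate 1 was the lowest of its group for 42 genes, with a median difference of -0.79. Klf8gt replicate 2 held the highest signal of all arrays for 31 genes and replicate 4 for 10. Both arrays were picked out by the signals of these same 44 genes. Leaving out the lowest array of a group raises the mean of that group by construction. Results that rest on these arrays are given with and without them, and those without them are descriptions.

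**Figure D1:**
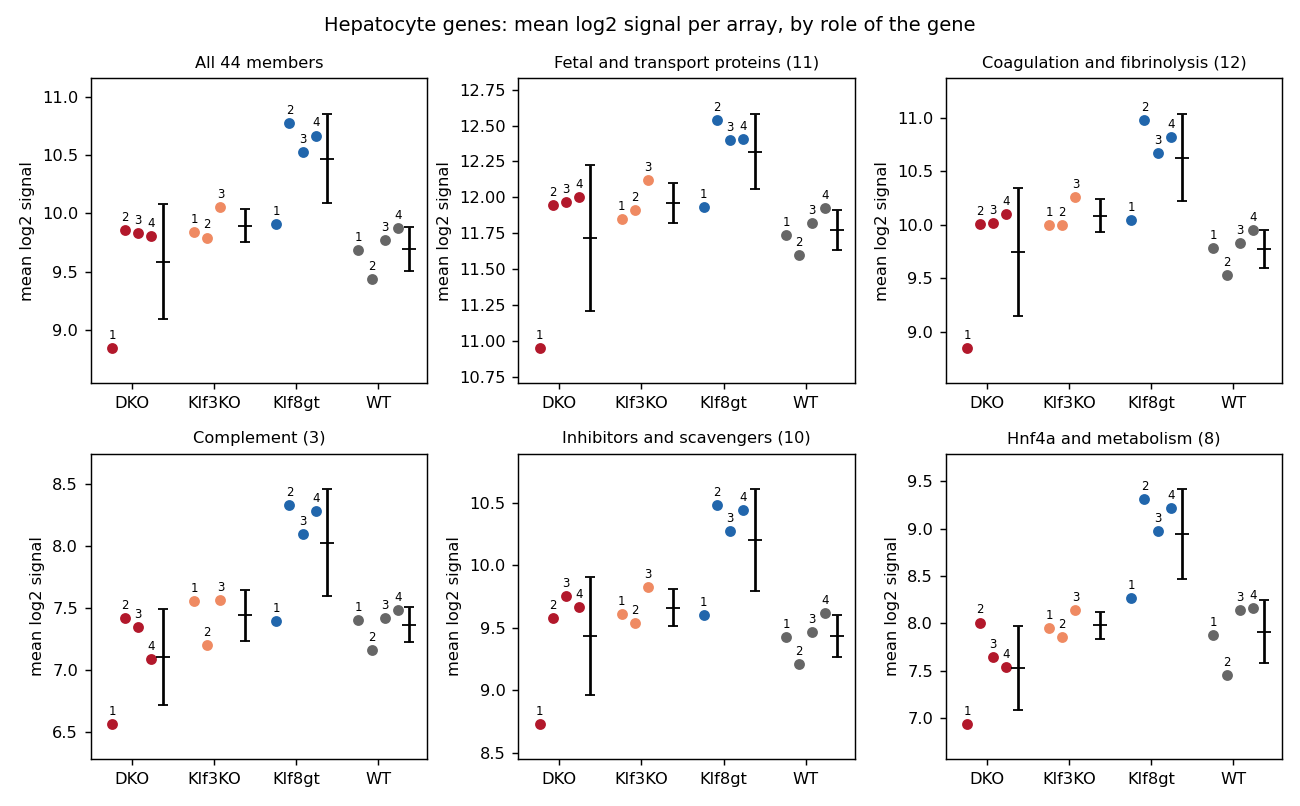
Mean log2 signal per array (y axis) of all 44 hepatocyte genes and of each role, by genotype (x axis), with each point an array labelled by its replicate number and bars giving the mean and SD of each group. DKO replicate 1 at 8.85 is the lowest array for all 44 genes and Klf8gt replicates 2 to 4, from 10.53 to 10.77, the highest.

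Other cell types of the liver were measured on the same arrays. The mean of 10 epithelial genes was lowest in DKO replicate 1 (7.99), and that of 10 endothelial genes was lowest in Klf8gt replicate 1 (7.86) and next lowest in DKO replicate 1 (7.95). A list of 15 macrophage genes also had its minimum in DKO replicate 1 (7.24), and 6 megakaryocyte genes had theirs in Klf8gt replicate 1 (9.19). Not every list was low in both arrays. The macrophage mean of Klf8gt replicate 1 (8.75) and the megakaryocyte mean of DKO replicate 1 (9.29) lay within the range of their groups. For stellate and mesenchymal genes, DKO replicate 1 (8.45) lay above DKO replicate 4 (8.33), while Klf8gt replicate 1 (8.23) was the lowest of its group. Erythroid genes ran the other way. Their mean was highest within the group in DKO replicate 1 (11.98, against 11.37 to 11.75 in the other DKO arrays) and in Klf8gt replicate 1 (12.13, against 11.79 to 11.85 in the other Klf8gt arrays). The part of other cells' RNA in the differences between genotypes was not tested.

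In DKO relative to Klf8gt arrays, the comparison that adds loss of KLF3 to the Klf8 allele, 15 of the 44 hepatocyte genes fell and 0 rose, and the means of all 44 were lower. Differences were tested with limma across all 23410 clusters that carry a gene symbol, and a gene is said to rise or fall where its p-value, adjusted after Benjamini and Hochberg over all of them, was under 0.05. In this contrast 1.87% of all clusters fell and 3.35% moved in either direction. The median difference of the list was -0.80, against -0.0029 over all clusters, and its extremes were -2.42 (Car3) and -0.10 (Hp). The genes that fell were Ahsg, Apoh, F9, F13b, Proc, C8b, Pzp, Saa3, Cps1, Fabp1, Iyd, Cyp2c70, Ces1d, Ugt2b36 and Car3. Counted by role, 2 of 11 fetal and transport proteins fell, 3 of 12 coagulation proteins, 1 of 3 complement proteins, 2 of 10 inhibitors and scavengers, and 7 of the 8 genes of the regulatory and metabolic group. An unadjusted p under 0.05 was reached by 29 genes, as by 18.7% of all clusters. In 13 genes every DKO array lay below every Klf8gt array, which held for 4.12% of all clusters. The count of 15 was 12 without DKO replicate 1 (1.78% of all clusters fell there), 25 without Klf8gt replicate 1 (4.79%), and 26 without both (3.56%). It was 7 without Klf8gt replicate 2 (0.748%), 8 without Klf8gt replicate 4 (0.701%), and 22 with the replicate number as a block (2.45%). Proc, F9 and Saa3 were the calls lost without DKO replicate 1. Without both arrays that stood apart the 15 also passed, by -0.81 (Proc) to -2.50 (Car3) where a size is given. Ttr, Apoa1, Fga, Fgb, Fgg, F10, Kng1, Serpinc1, C9, Itih4 and Vtn passed there too. Both arrays were picked by the signals of these same genes, so no conclusion is drawn from the counts without them. F13b, Car3, Pzp, Ces1d, Fabp1 and C8b fell under each of the 26 other settings tried. With sex as a term the count was 15 as well (1.66% of all clusters fell).

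**Figure D2:**
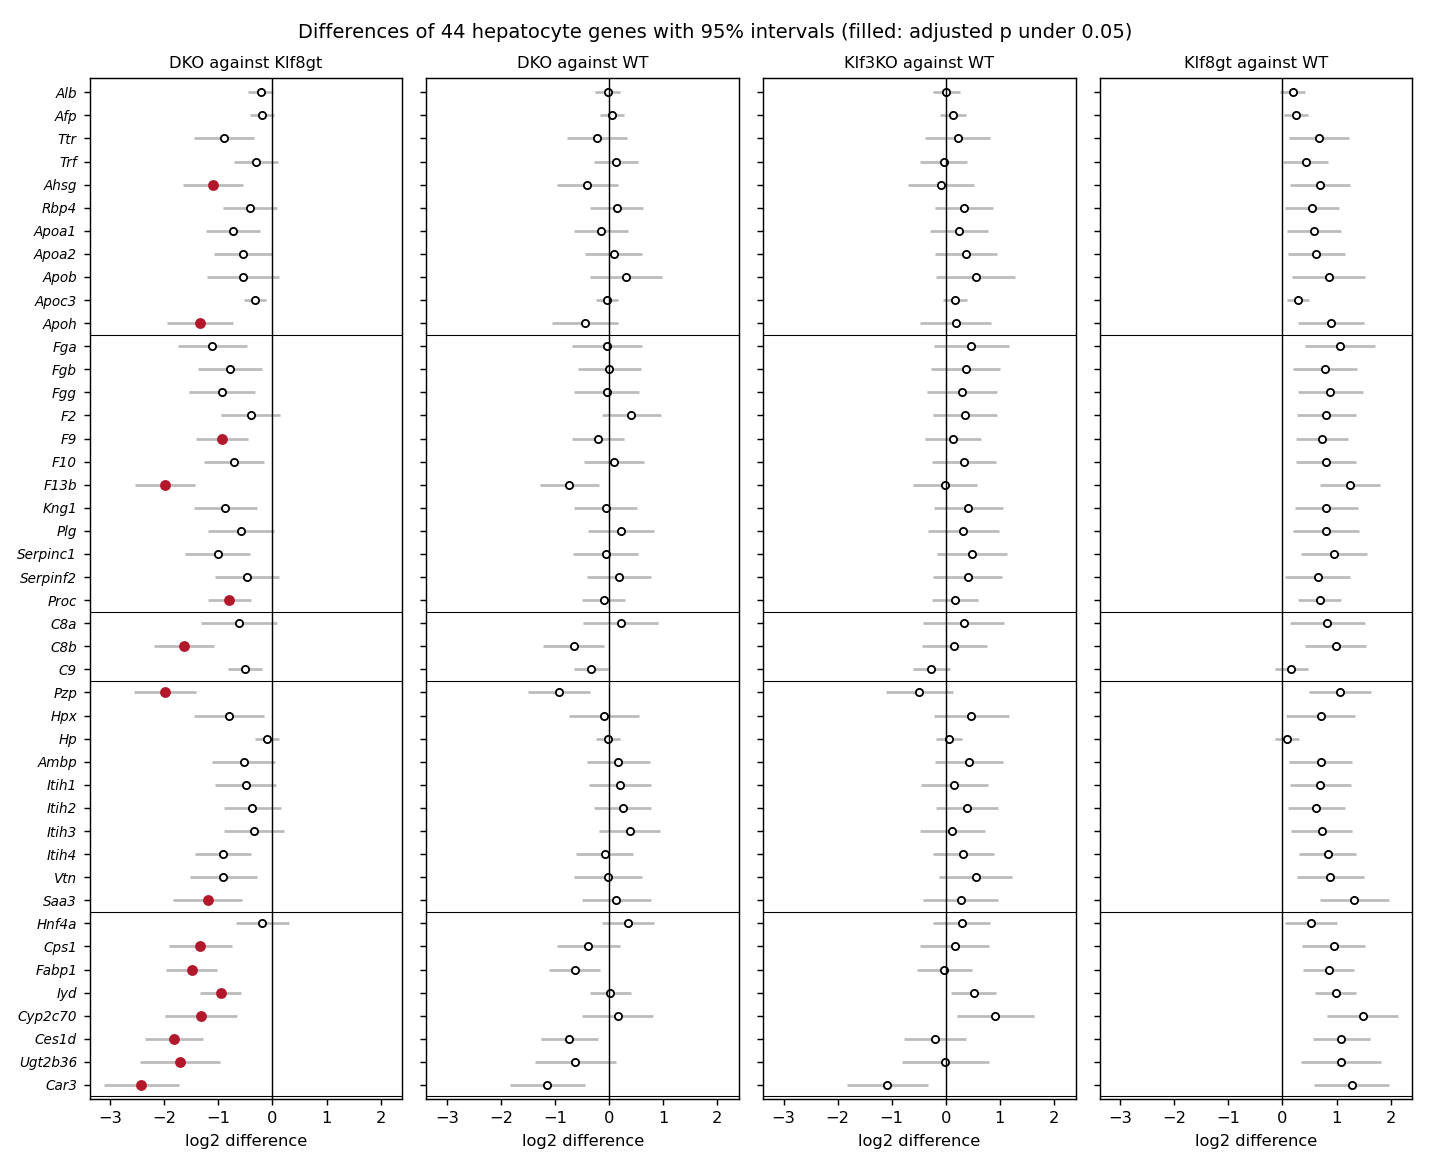
Difference of group means in log2 signal (x axis) with its 95% interval for each of the 44 genes (rows, grouped by role) in 4 comparisons, with filled red points where the adjusted p was under 0.05. All 44 points lie left of 0 for DKO against Klf8gt and right of 0 for Klf8gt against WT, and all 15 filled points stand in the DKO against Klf8gt panel.

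The comparison of Klf8gt with WT arrays, which shares the Klf8gt arrays with that of DKO with Klf8gt, asks what the Klf8 allele changes alone. Here 44 of 44 genes were higher in the mean of the Klf8gt arrays, with a median difference of 0.80 against -0.016 over all clusters, but 0 passed the threshold in limma, and 0% of all clusters did. The smallest adjusted p was 0.170, for Iyd, while 41 genes had an unadjusted p under 0.05, as did 13.4% of all clusters. In 19 genes every Klf8gt array lay above every WT array, as it did in 2.47% of all clusters. Without replicate 1 of Klf8gt, 28 of the 44 rose (4.61% of all clusters) and the median was 0.99, and without it and DKO replicate 1 together, 40 rose (8.47%). Both counts leave out a Klf8gt array picked for its low signal of these genes, so no conclusion is drawn from them.

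DKO and WT arrays, which differ by both alleles, gave no such shift. Of the 44 genes, 19 were higher and 25 lower in the mean of the DKO arrays, the median was -0.04, and 0 passed the threshold in limma, which 3.3% of all clusters did. The smallest adjusted p was 0.0710, for Car3, and 7 genes had an unadjusted p under 0.05, as did 17.9% of all clusters. Pzp was the single gene whose DKO arrays all lay below all WT arrays, as 4.75% of all clusters did. DKO replicate 1 sets the sign of the median, which was 0.23 without it, with 30 of 44 genes higher. With neither of the arrays that stood apart, 11 genes rose (5.1% of all clusters) and Pzp alone fell (4.56%). Those that rose were Rbp4, Apoa2, Apob, Fgb, F2, F10, Plg, Ambp, Itih2, Itih3 and Hnf4a, by between 0.38 and 0.72 on the log2 scale, and all of them were chosen here after their values were seen.

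Klf3KO arrays, which lack KLF3 alone, stood slightly above WT arrays for most of the list. In the means 35 of 44 genes were higher, the median difference was 0.26, and 0 passed the threshold in limma, which 0.585% of all clusters did. The smallest adjusted p was 0.360, for Car3, and 3 genes (Iyd, Cyp2c70 and Car3) had an unadjusted p under 0.05, as did 7.83% of all clusters. All Klf3KO arrays lay above all WT arrays in 14 genes, as in 8.79% of all clusters, and below them in 1, Car3, as in 5.7% of all clusters. Neither array that stood apart belongs to this comparison, but both enter the shared estimate of spread. Without them Cyp2c70 rose (1.09% of all clusters did) by 0.91, a description because those arrays were picked by the signals of these genes. For these group sizes the smallest p of an exact permutation test is 0.0571.

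All DKO comparisons share the DKO arrays. DKO arrays set against Klf3KO arrays, the comparison that adds the Klf8 allele to a Klf3-null background, were lower in the mean for 39 of 44 genes, with a median of -0.30. The count past the threshold in limma was 0 (0.047% of all clusters passed), 6 had an unadjusted p under 0.05 (12.9% of all clusters), and the smallest adjusted p was 0.242, for C8b. Without DKO replicate 1 the median was -0.10 and 24 of 44 genes were lower. In 4 genes every DKO array lay below every Klf3KO array, as in 5.45% of all clusters. The interaction asks whether the Klf8 allele acts differently with and without KLF3. It was negative for all 44 genes, with a median of -1.08 against 0.0012 over all clusters, and 0 passed the threshold in limma, against 0.00427% of all clusters in either direction. The smallest adjusted p was 0.0845, for Iyd, and 32 genes had an unadjusted p under 0.05, as did 14.4% of all clusters. Without Klf8gt replicate 1, 16 genes passed with a negative interaction (2.41% of all clusters), and 27 did without both arrays that stood apart (2.7%). These counts leave out arrays picked by the signals of these genes, so no conclusion is drawn from them.

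Among the fetal and transport proteins, albumin and alpha-fetoprotein, the adult and fetal carriers that open the hepatocyte programme, lay near the upper end of the scale, and neither passed the test in any of the comparisons on all 15 arrays. Alb, the main carrier protein of plasma, had 13.56, 14.09, 14.12 and 14.09 in DKO arrays, 13.96, 14.01 and 14.03 in Klf3KO arrays, 14.07, 14.17, 14.22 and 14.26 in Klf8gt arrays and 13.96, 13.89, 14.04 and 14.07 in WT arrays. Its DKO arrays overlapped with its Klf8gt arrays, and outside DKO replicate 1 every array lay between 13.89 and 14.26. Afp, the carrier that albumin replaces after birth, had 13.66, 14.13, 14.16 and 14.20 in DKO arrays, 14.09, 14.10 and 14.17 in Klf3KO arrays, 14.09, 14.27, 14.25 and 14.33 in Klf8gt arrays and 13.95, 13.93, 14.03 and 14.05 in WT arrays. For Afp every Klf8gt array lay above every WT array, and so did every Klf3KO array, while DKO arrays overlapped with each group. Without both arrays that stood apart, Afp rose in Klf8gt relative to WT arrays, by 0.29. Those arrays were picked by the signals of these genes, so this is a description. The difference of DKO from Klf8gt was -0.21 ± 0.11 (SE, adjusted p = 0.307) for Alb and -0.20 ± 0.10 (SE, adjusted p = 0.33) for Afp. The 3 genes with a mean above 13, Alb, Afp and the iron carrier Trf, ranged over 0.67 to 1.14 across the 15 arrays, whereas the 35 genes of middle signal ranged over 1.33 to 3.36. The highest signal of any cluster lay between 14.81 and 14.89 on each array, and the part of this upper end of the scale in the small differences of Alb, Afp and Trf was not tested.

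Apoh and Ahsg were the members of this role that fell. Apoh, also called beta-2-glycoprotein I, binds phospholipids in plasma, and it had 8.90, 10.57, 10.03 and 9.73 in DKO arrays, 10.27, 10.45 and 10.61 in Klf3KO arrays, 10.45, 11.53, 11.25 and 11.39 in Klf8gt arrays and 10.24, 9.91, 10.46 and 10.41 in WT arrays. DKO replicates 1, 3 and 4 lay below all Klf8gt arrays, and replicate 2 lay just above Klf8gt replicate 1. Relative to Klf8gt, Apoh fell by 2.54-fold in DKO arrays, a difference of -1.35 ± 0.29 (SE, adjusted p = 0.0164). That call was lost without Klf8gt replicate 2 or 4 and with only the groups compared. Ahsg, fetuin-A, which keeps calcium phosphate in solution, had 10.54, 12.03, 11.75 and 11.67 in DKO arrays, against 11.97, 12.93, 12.65 and 12.84 in Klf8gt arrays. Only DKO replicate 2 lay above the lowest Klf8gt array, and the difference was -1.10 ± 0.26 (SE, adjusted p = 0.0328). The call of Ahsg was lost in 5 of 26 other settings, among them those without Klf8gt replicate 2, 3 or 4. Among the apolipoproteins, Apoa1 and Apoa2 of high-density lipoprotein differed by -0.74 and -0.55, and Apob, the structural protein of low-density lipoprotein, by -0.54 (adjusted p = 0.0987, 0.257 and 0.377). Ttr, a carrier of thyroxine, differed by -0.90, Rbp4, the carrier of retinol, by -0.41 and Trf by -0.30 (adjusted p = 0.0728, 0.365 and 0.423). Apoc3, an inhibitor of lipoprotein lipase, had a mean signal of 6.18, below the array medians, and differed by -0.33.

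Of the 12 clotting genes F13b, Proc and F9 fell in DKO relative to Klf8gt arrays. Serpinf2, the main inhibitor of plasmin, had the highest mean signal of this role, with 11.15, 12.17, 12.59 and 12.91 in DKO arrays, 12.34, 12.26 and 12.69 in Klf3KO arrays, 12.24, 12.99, 12.76 and 12.71 in Klf8gt arrays and 11.99, 11.83, 11.97 and 12.32 in WT arrays. DKO and Klf8gt arrays of Serpinf2 overlapped, and the difference was -0.47 ± 0.28 (SE, adjusted p = 0.389). Fgb, a chain of fibrinogen, had 10.57, 12.01, 12.15 and 12.04 in DKO arrays, 11.998, 11.97 and 12.20 in Klf3KO arrays, 11.92, 12.74, 12.62 and 12.62 in Klf8gt arrays and 11.69, 11.46, 11.71 and 11.90 in WT arrays. All Klf8gt arrays and all Klf3KO arrays of Fgb lay above all WT arrays, with differences of 0.79 ± 0.28 (SE, adjusted p = 0.286) and 0.37 ± 0.30 (SE, adjusted p = 0.796), neither of them past the threshold. Without Klf8gt replicate 1 Fgb passed relative to WT, and without both arrays that stood apart it did so with 0.97. Klf8gt replicate 1 was left out for its low signal of these genes, Fgb among them, so no conclusion is drawn from this. The other chains, Fga and Fgg, differed from Klf8gt in DKO arrays by -1.11 and -0.93 (adjusted p = 0.0582 and 0.086), beside -0.78 for Fgb. In fibrinogen all 3 chains are needed for assembly of the molecule.

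F13b, the carrier subunit of factor XIII that crosslinks fibrin, had 6.11, 7.45, 6.71 and 6.93 in DKO arrays, 7.32, 7.54 and 7.70 in Klf3KO arrays, 8.03, 9.12, 8.84 and 9.15 in Klf8gt arrays and 7.48, 7.39, 7.82 and 7.45 in WT arrays. Every DKO array lay below every Klf8gt array, and every Klf8gt array lay above every WT and Klf3KO array. In DKO relative to Klf8gt arrays F13b fell 3.97-fold, a difference of -1.99 ± 0.26 (SE, adjusted p = 0.000405), with the smallest exact two-sided permutation p that 4 against 4 arrays allow, 0.0286. The same gene differed by 1.25 ± 0.26 (SE, adjusted p = 0.211) between Klf8gt and WT arrays and by -0.74 ± 0.26 (SE, adjusted p = 0.14) between DKO and WT arrays. Proc, the zymogen of the anticoagulant protein C, fell as well, with 7.99, 8.69, 8.67 and 8.57 in DKO arrays, against 8.74, 9.73, 9.31 and 9.32 in Klf8gt arrays and a difference of -0.80 ± 0.19 (SE, adjusted p = 0.0296), a call that held in 20 of 26 other settings. F9, a factor of the intrinsic pathway, passed the test (adjusted p = 0.0335) and did so in 18 of 25 other settings, but all its DKO arrays lay under the lower quartile of their array, so no size is given. The remaining genes did not pass. Prothrombin (F2) differed by -0.40, factor X (F10) by -0.71, kininogen (Kng1) by -0.88, plasminogen (Plg) by -0.58 and antithrombin (Serpinc1) by -1.02, with adjusted p-values of 0.421, 0.145, 0.0957, 0.3 and 0.0642.

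**Figure D3:**
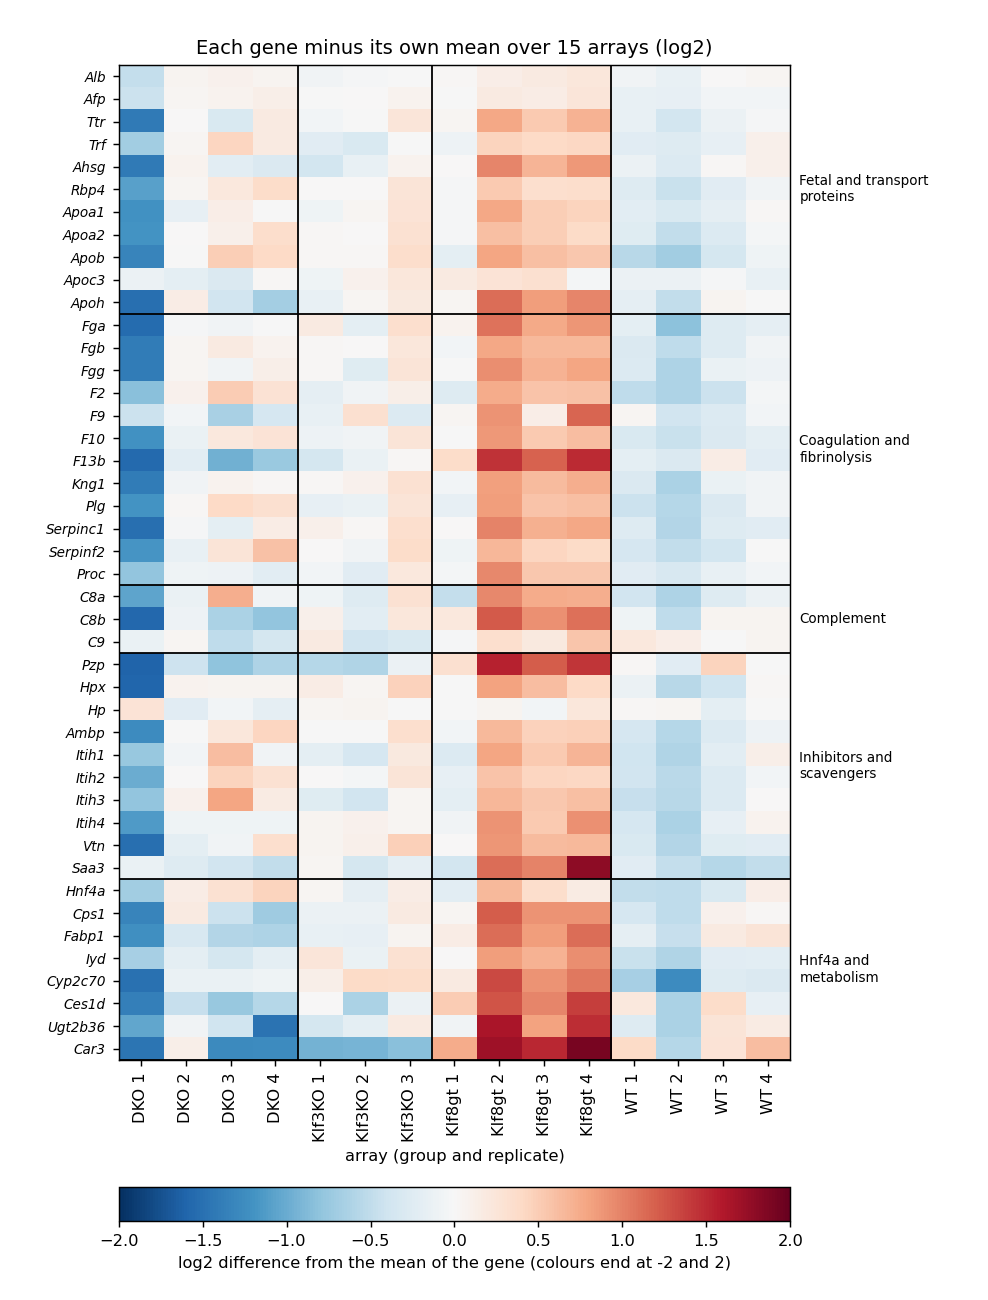
Log2 signal of each of the 44 genes (rows, grouped by role) minus its own mean over 15 arrays, for each array (columns, by genotype and replicate), with red above and blue below the mean. Klf8gt replicates 2 to 4 are red and DKO replicate 1 is blue for most genes. Pzp is blue in all DKO and Klf3KO arrays and Car3 in all of them but DKO replicate 2.

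Complement was represented by the subunits C8a, C8b and C9 of the membrane attack complex, which perforates target cells. C8b had 6.97, 8.44, 7.90 and 7.76 in DKO arrays, 8.64, 8.33 and 8.77 in Klf3KO arrays, 8.75, 9.76, 9.45 and 9.64 in Klf8gt arrays and 8.46, 8.04, 8.60 and 8.59 in WT arrays. All of its DKO arrays lay below all Klf8gt arrays, and the difference was -1.64 ± 0.26 (SE, adjusted p = 0.00249), or 3.11-fold lower. C8a, the neighbouring gene whose product forms a complex with that of C8b, had 7.11, 8.03, 8.90 and 8.10 in DKO arrays, 8.08, 7.92 and 8.47 in Klf3KO arrays, 7.70, 9.13, 8.91 and 8.89 in Klf8gt arrays and 7.78, 7.56, 7.90 and 8.06 in WT arrays. DKO replicate 3 of C8a, at 8.90, stood among the Klf8gt arrays, and the difference was -0.62 ± 0.33 (SE, adjusted p = 0.329). C9 had a mean signal of 5.75, below the array medians, and differed by -0.51 (adjusted p = 0.0737). Thus 1 of the 3 measured genes, C8b, fell.

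The inhibitors and scavengers divided into Pzp and Saa3, which fell, and 8 genes that did not pass the test. Itih2, a heavy chain that is joined to the inhibitor bikunin, had the highest mean signal of this role, with 11.71, 12.71, 13.16 and 13.02 in DKO arrays, 12.71, 12.67 and 12.97 in Klf3KO arrays, 12.54, 13.27, 13.14 and 13.12 in Klf8gt arrays and 12.33, 12.16, 12.43 and 12.65 in WT arrays. The groups of Itih2 overlapped apart from Klf3KO, all of whose arrays lay above all WT arrays. Ambp, the precursor of bikunin itself, had 11.08, 12.33, 12.57 and 12.77 in DKO arrays, 12.33, 12.34 and 12.67 in Klf3KO arrays, 12.28, 12.99, 12.80 and 12.82 in Klf8gt arrays and 11.998, 11.77, 12.06 and 12.24 in WT arrays. Relative to Klf8gt, the DKO arrays differed by -0.37 ± 0.25 (SE, adjusted p = 0.45) for Itih2 and -0.54 ± 0.27 (SE, adjusted p = 0.312) for Ambp. The further heavy chains Itih1, Itih3 and Itih4 differed by -0.50, -0.34 and -0.92 (adjusted p = 0.337, 0.518 and 0.0541).

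Pzp, a broad protease inhibitor of the alpha-macroglobulin family, had 7.63, 8.82, 8.43 and 8.61 in DKO arrays, 8.66, 8.64 and 9.12 in Klf3KO arrays, 9.55, 10.77, 10.45 and 10.67 in Klf8gt arrays and 9.26, 9.01, 9.67 and 9.23 in WT arrays. Every DKO array lay below every Klf8gt array and below every WT array, and Klf3KO arrays lay below all Klf8gt arrays. The DKO arrays fell 3.97-fold relative to Klf8gt, with a difference of -1.99 ± 0.27 (SE, adjusted p = 0.000591), and differed from WT by -0.92 ± 0.27 (SE, adjusted p = 0.0778). Without both arrays that stood apart, the difference from WT passed, at -0.67, a description because those arrays were picked by the signals of these genes. Saa3, an acute-phase protein of inflammation, passed with -1.19 ± 0.30 (SE, adjusted p = 0.0402), but its DKO mean of 5.13 lay below the array medians and its call held in 8 of 25 other settings. Saa3 had 5.08, 6.55, 6.43 and 7.22 in Klf8gt arrays, against 5.20, 4.96, 4.86 and 4.95 in WT arrays, so that its Klf8gt signal lay in replicates 2 to 4. The haem scavenger Hpx differed by -0.80 in DKO relative to Klf8gt arrays and the adhesion protein Vtn by -0.91 (adjusted p = 0.16 and 0.105). The haemoglobin scavenger Hp stood at a mean of 6.28, close to the array medians, and differed by -0.10.

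In the regulatory and metabolic group all 7 metabolic genes fell in DKO relative to Klf8gt arrays, and Hnf4a did not pass the test. Hnf4a, the nuclear receptor named above, had 8.85, 9.69, 9.84 and 9.98 in DKO arrays, 9.57, 9.37 and 9.68 in Klf3KO arrays, 9.32, 10.18, 9.90 and 9.71 in Klf8gt arrays and 9.05, 9.03, 9.23 and 9.68 in WT arrays. Its DKO and Klf8gt arrays overlapped over most of their range, and the difference was -0.19 ± 0.23 (SE, adjusted p = 0.704), with a 95% interval of -0.67 to 0.30. Over all 8 genes the median difference was -1.41.

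Fabp1, which carries fatty acids in hepatocytes, had 8.28, 9.19, 8.92 and 8.88 in DKO arrays, 9.37, 9.35 and 9.57 in Klf3KO arrays, 9.66, 10.62, 10.35 and 10.62 in Klf8gt arrays and 9.33, 9.05, 9.68 and 9.76 in WT arrays. In DKO arrays it lay below all Klf8gt and all Klf3KO arrays, with a difference from Klf8gt of -1.50 ± 0.22 (SE, adjusted p = 0.00134), or 2.82-fold lower. Cps1, the entry enzyme of the urea cycle, had 7.69, 9.19, 8.58 and 8.29 in DKO arrays, 8.89, 8.89 and 9.18 in Klf3KO arrays, 9.04, 10.22, 9.91 and 9.91 in Klf8gt arrays and 8.67, 8.50, 9.09 and 9.02 in WT arrays. Replicate 2 of DKO alone reached into the Klf8gt range of Cps1, and the difference was -1.33 ± 0.28 (SE, adjusted p = 0.014). This call was lost without Klf8gt replicate 2 or 4 and with only the groups compared.

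Car3, a cytosolic carbonic anhydrase abundant in muscle, fat and liver, had 7.82, 9.40, 8.01 and 8.03 in DKO arrays, 8.34, 8.35 and 8.45 in Klf3KO arrays, 10.03, 10.97, 10.78 and 11.18 in Klf8gt arrays and 9.67, 8.72, 9.56 and 9.90 in WT arrays. All DKO and all Klf3KO arrays lay below all Klf8gt arrays, and Klf3KO arrays also lay below all WT arrays. Replicate 2 of DKO, at 9.40, stood well above the other DKO arrays and within the range of WT. The fall of Car3 in DKO relative to Klf8gt was 5.37-fold, with -2.42 ± 0.33 (SE, adjusted p = 0.000552), the largest of the list. Against WT the DKO arrays differed by -1.15 ± 0.33 (SE, adjusted p = 0.071) and the Klf3KO arrays by -1.08 ± 0.35 (SE, adjusted p = 0.36).

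Iyd, which recovers iodide from iodotyrosines, had 6.21, 6.68, 6.53 and 6.68 in DKO arrays, 7.12, 6.74 and 7.18 in Klf3KO arrays, 6.87, 7.70, 7.56 and 7.79 in Klf8gt arrays and 6.43, 6.27, 6.64 and 6.66 in WT arrays. Its DKO arrays lay below all Klf8gt and all Klf3KO arrays, and its Klf8gt and Klf3KO arrays lay above all WT arrays. The difference of DKO from Klf8gt was -0.96 ± 0.18 (SE, adjusted p = 0.00744). Ces1d, a carboxylesterase of lipid and drug metabolism, had 5.08, 6.003, 5.70 and 5.89 in DKO arrays, 6.46, 5.82 and 6.34 in Klf3KO arrays, 6.96, 7.72, 7.44 and 7.84 in Klf8gt arrays and 6.68, 5.82, 6.82 and 6.30 in WT arrays. Ugt2b36, an enzyme that attaches glucuronic acid to steroids and drugs, had 4.87, 5.83, 5.50 and 4.44 in DKO arrays, 5.55, 5.70 and 6.09 in Klf3KO arrays, 5.84, 7.54, 6.71 and 7.39 in Klf8gt arrays and 5.65, 5.27, 6.16 and 6.06 in WT arrays. For both, every DKO array lay below every Klf8gt array. They differed by -1.82 ± 0.25 (SE, adjusted p = 0.000615) and -1.71 ± 0.35 (SE, adjusted p = 0.0134), with no fold given because their DKO means of 5.67 and 5.16 lay below the array medians. The call of Ces1d held in 26 of 26 other settings, and that of Ugt2b36 was lost without Klf8gt replicate 2 or 4 and with only the groups compared. Cyp2c70, the mouse enzyme that hydroxylates bile acids to muricholic acids, had 6.75, 8.10, 8.11 and 8.15 in DKO arrays, against 8.41, 9.56, 9.13 and 9.29 in Klf8gt arrays. It fell by 2.5-fold, a difference of -1.32 ± 0.31 (SE, adjusted p = 0.0297), and its interaction term, -2.24, was the most negative of the list (adjusted p = 0.113). Its call was lost in 5 of 26 other settings, among them those without Klf8gt replicate 2, 3 or 4.

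To describe single genes beside the shared shift, each was also set relative to the mean of the 44 genes on its own array. The genes were chosen for display after their values were seen, and no test is given. In 41 of the 44 the 7 arrays without KLF3 (DKO and Klf3KO) overlapped with the 8 arrays with KLF3 (Klf8gt and WT) on this relative scale. Pzp and Fabp1 were lower in all 7, and Itih2 was higher in all 7. The share of all clusters that separate in this way was not counted, so these genes cannot be set against a background. Relative to the list mean, Pzp stood at -1.22, -1.04, -1.41 and -1.19 in DKO arrays, -1.18, -1.16 and -0.94 in Klf3KO arrays, -0.36, -0.002, -0.08 and 0.001 in Klf8gt arrays and -0.43, -0.43, -0.10 and -0.65 in WT arrays. The mean over the arrays without KLF3 minus that over the arrays with KLF3 was -0.91, and the nearest arrays of both kinds stood at -0.94 and -0.65. Fabp1 lay between -0.92 and -0.44 in the 7 arrays without KLF3, against -0.39 to -0.05 in the 8 with it. Itih2 lay between 2.86 and 3.32 in arrays without KLF3, against 2.46 to 2.77 in arrays with it.

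Car3 had the largest difference on this scale, with a mean over arrays without KLF3 minus that over arrays with KLF3 of -1.39, but overlapped. Relative to the list mean it stood at -1.02, -0.45, -1.82 and -1.78 in DKO arrays, -1.50, -1.44 and -1.61 in Klf3KO arrays, 0.12, 0.20, 0.25 and 0.51 in Klf8gt arrays and -0.01, -0.72, -0.22 and 0.02 in WT arrays. DKO replicate 2, at -0.45, was the array without KLF3 that reached into the range of WT, whose replicate 2 stood at -0.72. By the same difference F13b (-0.69), Ces1d (-0.69), Ugt2b36 (-0.54) and C8b (-0.43) were lower, each with overlap. At the other end, Hnf4a was 0.42 higher, Apob 0.35 higher and F2 0.34 higher in arrays without KLF3, each with overlap. In DKO replicate 1, the array with the lowest list mean, the relative signals of Pzp (-1.22), Fabp1 (-0.57) and Itih2 (2.86) lay within the range of the other arrays without KLF3.

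**Figure D4:**
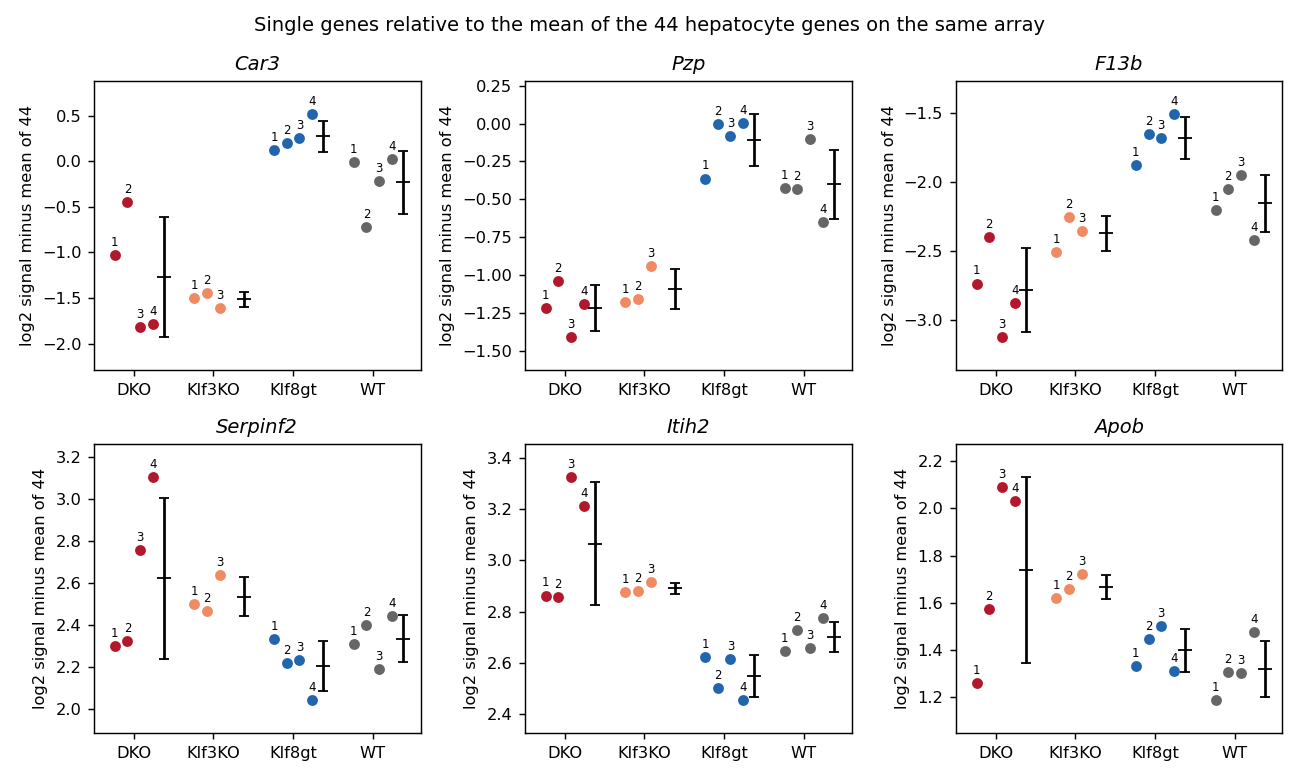
Log2 signal of 6 genes minus the mean of the 44 hepatocyte genes on the same array (y axis), by genotype (x axis), with each point an array labelled by its replicate number and bars giving mean and SD. All 7 DKO and Klf3KO arrays lie below all 8 Klf8gt and WT arrays for Pzp and above them for Itih2, and the groups overlap for Car3, F13b, Serpinf2 and Apob.

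How closely the members followed each other was measured over the 15 arrays after the mean of each genotype was taken off, as the correlation of each with the mean of the others. These correlations share the arrays that stood apart, and are descriptions. Kng1 (0.982), Fgg (0.978), Fga (0.970) and Ahsg (0.969) were closest over the 15 arrays, and over the 13 arrays left without the arrays that stood apart Kng1 (0.932), Fgb (0.904) and Fgg (0.901) led. The low-signal genes Hp (-0.54), Apoc3 (-0.03), C9 (0.09), Saa3 (0.38) and F9 (0.39) did not follow the rest, and neither did Ugt2b36 (0.65) closely. Among members of middle signal, Car3 (0.65) and Ces1d (0.78) were lowest over the 15 arrays, and F13b (0.40) and Car3 (0.51) over the 13.

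Among genes outside the 44, those most like the mean of the 44 by the same measure were Idh1 (r = 0.995 over 15 arrays and 0.977 over 13), the cytosolic isocitrate dehydrogenase, and Afm (0.991 and 0.960), the afamin gene of the albumin family. The next were Ghr, the growth hormone receptor, Marveld2, Aldh3a2, Abca6, Acsl4, Armcx3, Errfi1 and Anxa4, with r between 0.976 and 0.986 over 15 arrays. Of 23366 clusters outside the list, 1312 (5.62%) had r above 0.8. Idh1 had 10.08, 10.84, 10.85 and 10.87 in DKO arrays, 10.85, 10.84 and 11.05 in Klf3KO arrays, 10.74, 11.35, 11.17 and 11.30 in Klf8gt arrays and 10.75, 10.59, 10.89 and 10.92 in WT arrays. As in the list itself, DKO replicate 1 was lowest and Klf8gt replicates 2 to 4 highest.

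Further hepatocyte genes, from lists made beside the members, also had negative medians in DKO relative to Klf8gt arrays, where 1.87% of all clusters fell. Of 13 other coagulation genes 1 fell (F11, factor XI), of 13 other complement genes 2 fell (Mbl1, a mannose-binding lectin, and Masp2, its protease), of 8 other apolipoproteins 1 fell (Apof), of 19 other plasma proteins 5 fell, and of 26 other metabolic genes 6 fell, with 0 rising in any of these lists. Their median differences were -0.54, -0.48, -0.34, -0.20 and -0.38. Apof averaged 7.66 ± 0.58 in DKO arrays and 9.11 ± 0.44 in Klf8gt arrays (SD, n = 4 each), a difference of -1.45 ± 0.25 (SE, adjusted p = 0.00403). Mat1a, the liver enzyme that makes S-adenosylmethionine, averaged 6.29 ± 0.43 in DKO arrays and 7.75 ± 0.47 in Klf8gt arrays (SD, n = 4 each), a difference of -1.46 ± 0.21 (SE, adjusted p = 0.001). Arg1, the last enzyme of the urea cycle, differed by -1.07 ± 0.18 (SE, adjusted p = 0.0034), and the bile salt transporters Abcb11 and Slc10a1 by -1.15 ± 0.26 (SE, adjusted p = 0.0227) and -0.64 ± 0.14 (SE, adjusted p = 0.0178). The drug-metabolising Cyp3a11 passed as well (adjusted p = 0.0140), at a signal under the lower quartile of its DKO arrays. Among the other plasma proteins, Serpina7 (thyroxine-binding globulin) differed by -1.27 ± 0.23 (SE, adjusted p = 0.00545), Cp (ceruloplasmin) by -1.30 ± 0.25 (SE, adjusted p = 0.00991), and Agt (angiotensinogen), A2m (an alpha-macroglobulin like Pzp) and Spp2 fell too, with adjusted p-values of 0.0373, 0.0375 and 0.0434. These last 3 calls held in 12, 14 and 11 of 26 other settings, those of Masp2 and F11 in 11 and 19, and those of the other genes named here in at least 22. By contrast, 0 of 15 other regulators of hepatocyte genes passed in limma, with 0 at an unadjusted p under 0.05 and a median of -0.0016.

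Marker genes of the cell types that share the liver with hepatocytes were tested in the same way. Of all clusters, 3.3% passed in either direction in DKO relative to WT arrays. Relative to Klf8gt arrays 3.35% passed and 1.87% fell, and 18.7% had an unadjusted p under 0.05 in limma. Macrophage genes, which mark the cells around which erythroblasts mature, averaged 8.05 ± 0.68 in DKO, 8.75 ± 0.28 in Klf3KO, 8.79 ± 0.22 in Klf8gt and 9.11 ± 0.14 in WT arrays (SD, n = 4, 3, 4 and 4). In DKO relative to WT arrays 6 of 15 macrophage genes fell, led by Cd5l with -2.54 ± 0.33 (SE, adjusted p = 0.000338) and Marco with -1.54 ± 0.26 (SE, adjusted p = 0.00324), and relative to Klf8gt 3 fell, Cd5l with -1.90 ± 0.33 (SE, adjusted p = 0.00444) among them. The receptor Timd4 fell relative to WT as well, with -1.60 ± 0.33 (SE, adjusted p = 0.0144). Erythroid genes averaged 11.63 ± 0.28 in DKO, 11.86 ± 0.14 in Klf3KO, 11.90 ± 0.16 in Klf8gt and 12.06 ± 0.11 in WT arrays. Relative to WT, 3 of 15 erythroid genes fell in DKO arrays, the regulators Nfe2 and Klf1 and the ubiquitin ligase Trim58, and 0 of 15 passed relative to Klf8gt, where 7 had an unadjusted p under 0.05 in limma. The calls of Nfe2, Klf1 and Trim58 held in 19, 9 and 13 of 26 other settings, with adjusted p-values of up to 0.114, 0.156 and 0.153, and all 3 were lost with sex as a term. Of 12 genes of stellate and mesenchymal cells, whose median difference was 0.10 with 9 higher and 3 lower, the collagen genes Col1a1 and Col1a2 rose in DKO relative to Klf8gt arrays, by 0.88 ± 0.16 (SE, adjusted p = 0.00745) and 0.57 ± 0.13 (SE, adjusted p = 0.0291). Of 10 epithelial genes 1 fell relative to Klf8gt, the tight junction gene Cldn1, with -1.17 ± 0.30 (SE, adjusted p = 0.043), a call that held in 11 of 26 other settings. Krt19, a keratin of bile duct cells, was the epithelial gene that rose relative to WT, with 0.58 ± 0.14 (SE, adjusted p = 0.0301), which held in 19 of 26 other settings. Endothelial and megakaryocyte genes gave 0 calls in limma in either comparison, with 0 of 10 and 2 of 6 at an unadjusted p under 0.05 relative to Klf8gt. The part of these cell types in the hepatocyte gene differences was not tested.

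**Figure D5:**
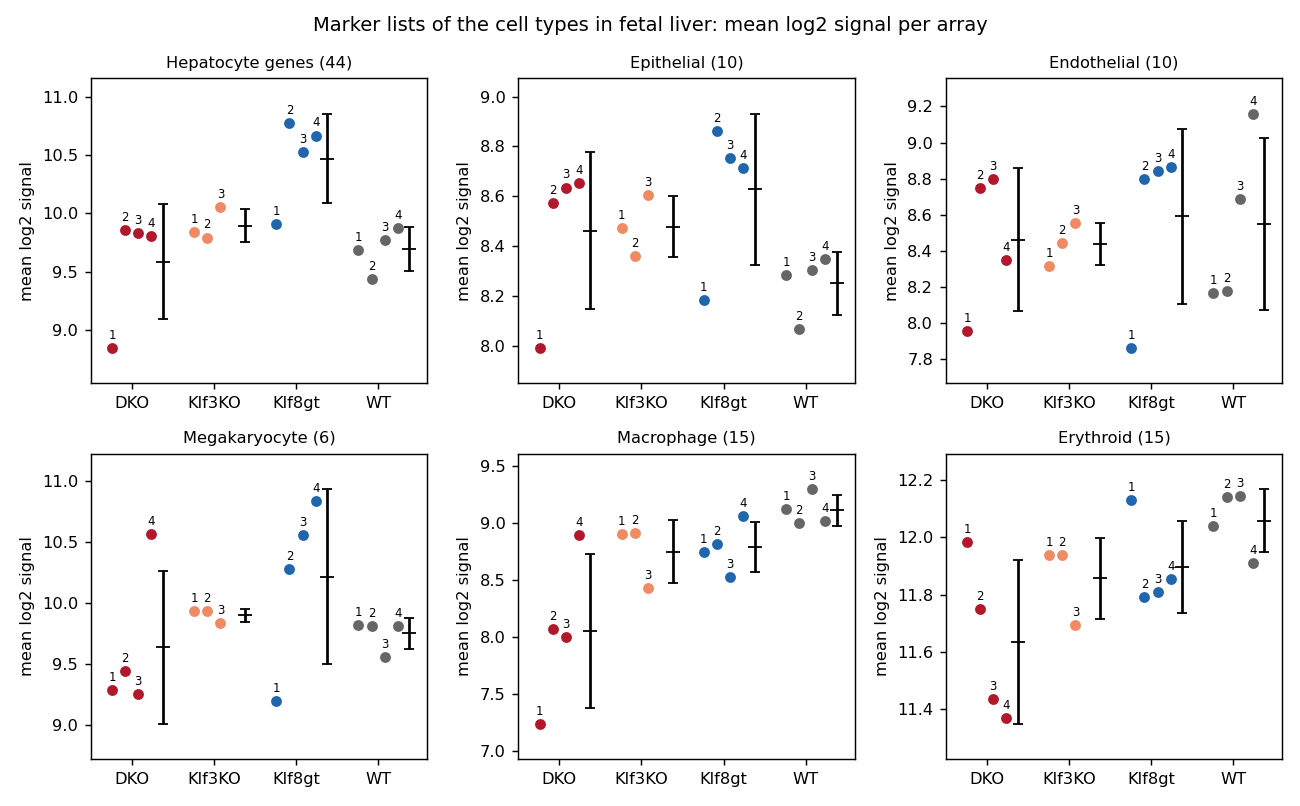
Mean log2 signal per array (y axis) of the 44 hepatocyte genes and of marker genes of 5 other cell types, with the number of genes in brackets, by genotype (x axis), with points for arrays labelled by replicate number and bars for mean and SD. DKO replicate 1 is lowest for hepatocyte, epithelial and macrophage genes and Klf8gt replicate 1 for endothelial and megakaryocyte genes, and both are the highest of their group for erythroid genes.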

How the data were processed

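RNA was labelled and hybridised to 15 Affymetrix arrays, and the authors deposited 1 log2 signal for each transcript cluster, summarised with RMA per the submitters' processing notes, which also name Partek. The number of arrays limits the precision. No version, background setting or annotation build is given in the sources used here. Of 35556 clusters, 21789 carry 1 gene symbol and 1621 several, and these 23410 were tested. A linear model in limma 3.58.1 (R 4.3.3) fitted 1 mean per genotype on all 15 arrays, with empirical Bayes variances and Benjamini-Hochberg adjusted p-values at 0.05. Single genes were also tested by exact two-sided permutation (SciPy 1.17.1). The model was tested on simulated data with changed genes, for DKO against WT over 23410 clusters. It recovered 95 of 100 at a log2 change of 1 and 100 of 100 at 2, with 12 false calls. These shares describe the simulated clusters, and recovery among the hepatocyte genes was not tested. The median SE of 4 arrays against 4 was 0.112, while SEs of the listed genes ran from 0.096 (Apoc3) to 0.35 (Ugt2b36). In Klf8gt against WT arrays the list differed by a median of 0.80 with 0 calls, and F13b by 1.25 without passing.

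Each gene was represented by its cluster with the highest mean signal (Fga has 2 clusters). Where a group mean fell short of the array medians no fold is printed, and under the lower quartile no difference is printed either. The value in every array is given for the 2 genes of highest mean signal in each role, for Hnf4a and for the 10 that passed with the smallest adjusted p. From the other lists up to 5 genes each were named by adjusted p, and 10 genes outside all lists by their correlation with the mean of the 44. The members, gene lists and tests were chosen with earlier results of these data known. RefSeq promoter windows of assembly GRCm38.p6 were matched by gene ID, and some motifs are not reported here. The deviations of arrays with the same replicate number from their group means correlated above 0.1 in every pair for DKO and Klf8gt and for no other comparison (correlations of 0.534, 0.114, 0.158 and 0.180). The 0.534 belongs to replicate 1, the arrays that stood apart, and a single pair of DKO and Klf3KO also reached 0.158. Whether the numbers pair the arrays is therefore not known. Counts with the number as a block, applied to all genotypes, are given beside those without it. The 26 alternatives comprised quantile and median scaling, all clusters, a filter on dim clusters, the mean over clusters of a gene, a variance trend, array weights, sex and replicate number as terms, only the groups compared, and arrays left out.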

Additional observations from a re-analysis of the deposited data

Results flagged for a closer look

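In groups of 4 arrays, an array was singled out where its gap to the nearest array exceeded Dixon's limit of 0.829 times the range of its group. Chance does so in about 1 of 20 groups, and 9 of 72 groups were singled out here. DKO replicate 1 stood below the other DKO arrays for the mean of the 44 genes (8.85), the fetal and transport proteins (10.95), the coagulation proteins (8.85), Afp (13.66), Alb (13.56) and Fgb (10.57). Klf8gt replicate 1 stood below its group for Fgb (11.92) and C8a (7.70), but was not singled out for the mean of the 44 genes. DKO replicate 2 stood above its group for Car3 (9.40).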

How the results depend on the processing

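DKO against Klf8gt gave 15 calls among the 44 genes. It gave 25 with array weights (3.49% of all clusters fell), 6 with only the groups compared (0.239%), 22 with the replicate number as a block, 26 without both arrays that stood apart, and 7 to 25 when single arrays were left out. Klf8gt against WT gave 0 calls, but 41 with array weights (11.2% of all clusters rose), 40 without both arrays that stood apart, and 0 to 28 with single arrays left out. DKO against WT gave 0, but 1 with the replicate block (4.21% of all clusters were called), 12 without both such arrays, and 0 to 2 with single arrays left out. Klf3KO against WT gave 0, but 1 each with array weights (2.55% were called), with only the groups compared (2.05%) and without both such arrays. The interaction gave 0, but 27 with array weights (4.11% of all clusters were lower), 3 with the replicate block (0.0427%), 27 without both such arrays, and 0 to 16 with single arrays left out. DKO against Klf3KO gave 0 throughout. The causes were not tested. Otherwise the replicate block changed no count by over 1.5 times. Among the single genes and comparisons followed, 1330 values stayed on their side of the threshold, 206 passed no longer and 46 passed newly, and 0 reversed after a call. Those followed were the calls of named genes and, in Klf8gt against WT, the members given in full. New calls of other genes and comparisons are therefore not among the 46, and the 46 and 206 cannot be compared.

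The group means of the 44 genes ranged over 9.50 to 9.83 in DKO, 9.81 to 9.95 in Klf3KO, 10.37 to 10.65 in Klf8gt and 9.63 to 9.78 in WT arrays when single arrays were left out. Variance trend and sex were not run for group means, which they cannot alter, and the filter on dim clusters left F9, Saa3, Cyp3a11 and Slc10a1 untested. Mean signals below the median of the array medians (Apoc3, C9, Hp, Saa3, F9, Ugt2b36) and near the top of the scale (Alb, Afp, Trf) limit what differences can show.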

Other observations

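Afm, which lies beside Alb and Afp in the albumin gene cluster, had 7.47, 8.80, 8.89 and 8.64 in DKO arrays, 8.64, 8.64 and 8.96 in Klf3KO arrays, 8.52, 9.82, 9.48 and 9.72 in Klf8gt arrays and 8.15, 7.86, 8.39 and 8.53 in WT arrays. All Klf3KO arrays lay above all WT arrays, and Klf8gt replicates 2 to 4 lay above every other array.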
